A study of Mus musculus with 24 samples.

Results

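Gabra2, Gabra3, Gabra4, Gabra5, Gabrb1 and Gabrb2 encode alpha and beta subunits of the GABA-A receptor, the chloride channel opened by the transmitter GABA. They were taken by gene name as 6 of the 36528 genes listed in each library, and all 6 passed the filter on low counts, which left 14890 genes to test. The remaining alpha and beta subunit genes were not analysed here. The 24 libraries are bulk RNA-seq of neurons purified from adult mouse cortex by fluorescence sorting, 6 each of the subtypes labelled EXC, PV, SST and VIP. In every group papain-dissociated cells that excluded the dead-cell dye DAPI and carried GFP or tdTomato were collected, according to a reporter line whose driver the labels do not name. Female libraries numbered 2 of 6 in EXC and in SST, 3 in PV and 4 in VIP, and the labels give no further genotype and no treatment. Whether each library is a separate animal is not stated, and the p-values therefore refer to the spread among libraries, part of which may be technical.

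GABA-A receptors are pentamers that most often combine alpha, beta and gamma subunits. The alpha subunit shapes where a receptor sits, how sensitive it is to GABA and which drugs act on it, and the binding site of GABA lies between an alpha and a beta subunit. Receptors with alpha2 are known from synapses on the soma and axon initial segment of pyramidal cells, those with alpha4 or alpha5 from extrasynaptic membrane, where they carry tonic inhibition, and those with alpha3 from several brain stem, thalamic and cortical neurons.

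The genes lie in clusters. In the RefSeq annotation of GRCm38.p6, Gabra2 (NCBI Gene 14395) spans chr5:70958392-71095849 and Gabra4 (14397) chr5:71569734-71658308, both on the minus strand, and Gabrb1 (14400) spans chr5:71657921-72149572 on the plus strand. Gabra5 (110886) spans chr7:57407669-57591016 on the minus strand, Gabra3 (14396) chrX:72432676-72656919 on the minus strand, and Gabrb2 (14401) chr11:42419515-42632591 on the plus strand. The spans of Gabra4 and Gabrb1, which face away from each other, overlap by 388 bases, of which 46 bases are exon of both in GENCODE M21. That of Gabra5 overlaps by 499 bases with a protein-coding gene not analysed here. The sources used here do not give the strand setting of the counting, so reads from the shared bases cannot be assigned to either gene.

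The 250 bases before the start site are shown for Gabra2 and Gabra5, which had the widest differences between subtypes, and for Gabra3 and Gabrb2, which were higher in PV than in EXC. They are RefSeq sequence of GRCm38.p6 read 5′ to 3′ on the gene's strand, with capitals for every match on either strand to the TATA box motif (TATAAA), to the GC box motif that Sp1 is known to bind (GGGCGG) and to the cAMP response element (TGACGTCA).
Gabra2, chr5:71095850-71096099, minus strand: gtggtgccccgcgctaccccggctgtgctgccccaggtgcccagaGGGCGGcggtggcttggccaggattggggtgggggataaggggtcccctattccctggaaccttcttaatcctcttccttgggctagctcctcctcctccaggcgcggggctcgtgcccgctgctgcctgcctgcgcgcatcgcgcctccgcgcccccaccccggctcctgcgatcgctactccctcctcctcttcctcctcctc
Gabra5, chr7:57510060-57510309, minus strand: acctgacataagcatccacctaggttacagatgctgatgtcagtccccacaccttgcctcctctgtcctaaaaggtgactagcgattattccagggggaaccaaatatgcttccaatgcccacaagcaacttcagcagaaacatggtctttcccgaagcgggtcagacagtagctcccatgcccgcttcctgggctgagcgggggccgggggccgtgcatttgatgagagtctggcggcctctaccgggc
Gabra3, chrX:72656920-72657169, minus strand: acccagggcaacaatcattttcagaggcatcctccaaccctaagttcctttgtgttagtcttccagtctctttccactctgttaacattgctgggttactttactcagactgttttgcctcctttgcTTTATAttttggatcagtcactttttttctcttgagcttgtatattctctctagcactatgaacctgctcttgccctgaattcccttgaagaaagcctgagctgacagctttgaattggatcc
Gabrb2, chr11:42420190-42420439, plus strand: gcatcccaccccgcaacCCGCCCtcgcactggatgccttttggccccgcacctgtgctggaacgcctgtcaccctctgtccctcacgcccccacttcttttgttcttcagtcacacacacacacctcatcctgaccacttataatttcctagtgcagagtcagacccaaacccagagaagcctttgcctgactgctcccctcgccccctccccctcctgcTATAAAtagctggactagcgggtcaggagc
The Gabra2 window held 1 match to GGGCGG and 18 CpG dinucleotides, more than 78.3% of the 32851 RefSeq windows of this length. The Gabra3 window held no CpG and 1 match to TATAAA on the opposite strand. Gabra5 had 9 CpG and none of the 3 motifs. Gabrb2 had 1 TATA box motif, 1 GC box motif on the opposite strand and 8 CpG. Over all windows the median was 6 CpG, and the TATA box motif was in 12.4% of them, the GC box motif in 32.7% and the cAMP response element in 1.55%, on either strand. The spans of Gabra5 and Gabrb2 reach further upstream than the windows shown, and Gabra3 and Gabrb2 had 2 and 3 start sites in the table, of which the first is shown. The matches describe these letters only.

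Total counts ran from 1548907 to 15978459 reads per library, with a median of 6012251.5. The genes that name the sorts followed them: Pvalb reached 178 to 232 CPM (read counts scaled to library size) in PV and at most 5.39 elsewhere, Sst 701 to 1422 in SST and at most 133 elsewhere, Vip 1634 to 1776 in VIP and at most 5.29 elsewhere, and Slc17a7, the vesicular glutamate transporter of cortical excitatory cells, 162 to 820 in EXC and at most 60.4 elsewhere. Some other markers also moved with a sort. The summed level of 6 dentate granule cell genes was 321 to 624 CPM in EXC, at most 8.59 in PV, at most 4.94 in SST and at most 4.27 in VIP, and 6 of 6 were called lower in each of the latter sorts than in EXC. The 6 striatal projection neuron genes summed to 205 to 633 CPM in SST and to between 22.7 and 68.2 in the other sorts. The 5 CA1 pyramidal cell genes summed to 245 to 406 CPM in SST, 89.9 to 273 in EXC, 134 to 183 in PV and 13.4 to 43.8 in VIP. In SST 2 of 5 were called higher and 3 lower than in EXC, and 3 higher and 0 lower than in VIP. The 6 oligodendrocyte genes summed to 72.3 to 2903 CPM in EXC, with 2903 in replicate 2 and 2620 in replicate 6. The 6 ciliated ependymal cell genes summed to 40.0 to 174 CPM in PV and to at most 1.69 in any other library, and 6 of 6 were called higher in PV than in each other sort. The 7 astrocyte genes summed to 98.7 to 230 CPM in PV, 14.8 to 460 in EXC, 42.3 to 141 in VIP and at most 42.5 in SST, with 6 of 7 called higher in PV than in SST, 4 of 7 higher than in VIP and 0 of 7 in either direction against EXC. Mitochondrially encoded genes took 14.379% to 52.884% of the reads in PV and 1.796% to 16.623% elsewhere. EXC replicate 3, the EXC library of another sequencing pool than the rest, had the lowest sum of 4 excitatory markers in its sort, 1666 CPM against 3363 or more. It also had the highest sum of 3 GABAergic markers in that sort, 763 CPM against at most 543 in the other EXC libraries. The part of these differences in the results below was not tested, except where values without a library or within a pool are given. In bulk RNA, fewer cells of a type and less RNA per cell cannot be told apart.

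**Figure D1:**
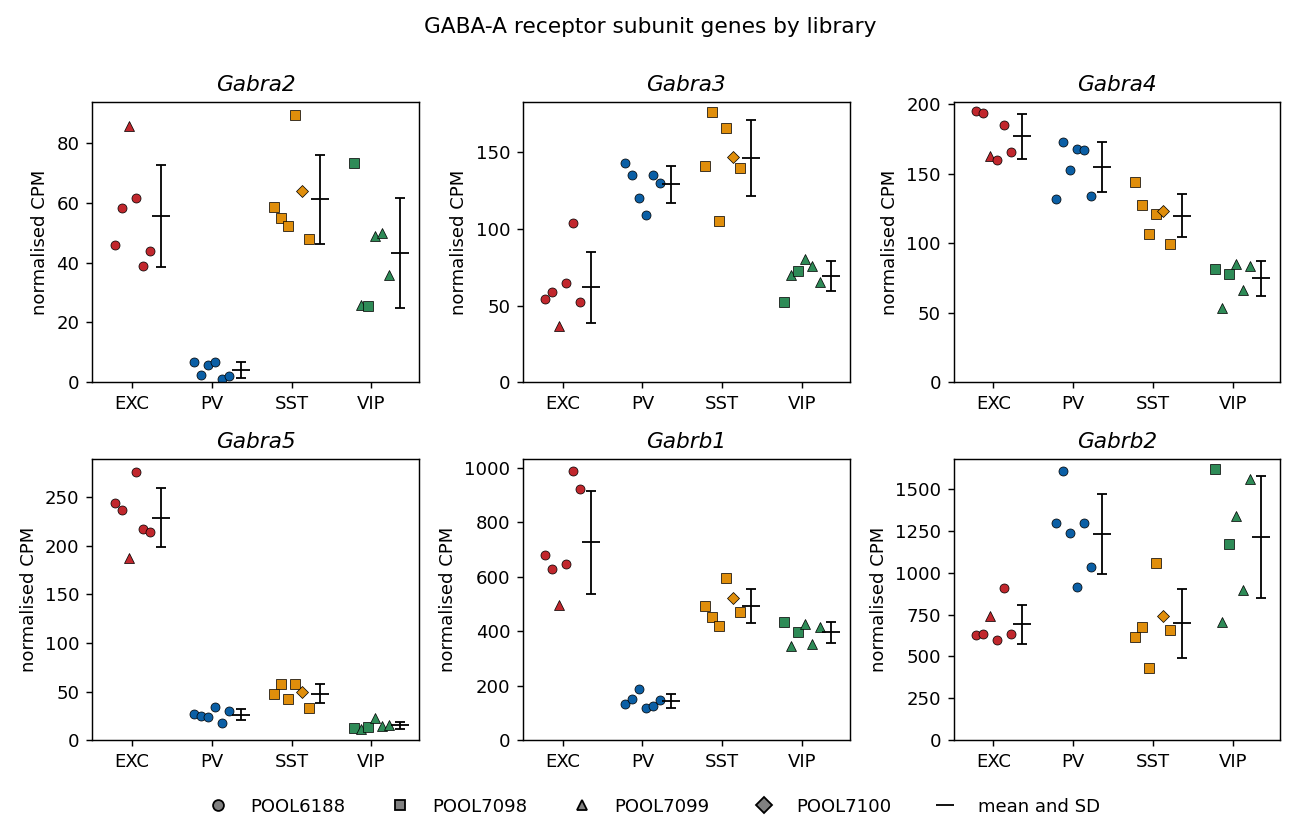
Normalised CPM of each gene (y axis, linear, from 0) in the 24 libraries by subtype (x axis). Each point is a library, its shape the sequencing pool, and the bar beside each group is the mean with its SD (n = 6). Gabra2 was close to 0 in PV alone, at most 6.73 CPM, and all 6 EXC libraries lay above all others for Gabra5.

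Among the alpha genes, Gabra2, which encodes alpha2, was far lower in PV than in the other sorts. Its normalised level in PV ran from 1.09 through a median of 4.11 to 6.73 CPM, which rested on 2 to 18 reads per library. All levels are on this scale and all differences below are log2 fold changes with their standard errors from edgeR's quasi-likelihood test. In EXC it ran from 38.7 through 52.0 to 85.4 CPM, in SST from 47.8 through 56.7 to 89.3, and in VIP from 25.5 through 42.4 to 73.2. No PV library reached the lowest library of any other sort, while EXC, SST and VIP overlapped. PV was lower than EXC by a log2 fold change of -3.75 ± 0.35 (SE, adjusted p = 1.82e-09), a 13.4-fold difference, than SST, at -3.91 ± 0.35 (adjusted p = 3.09e-09) and than VIP, at -3.46 ± 0.35 (adjusted p = 1.05e-08). The order of means was SST, EXC, VIP and PV, and the first 3 did not differ beyond their spread: SST against EXC gave 0.16 ± 0.27 (adjusted p = 0.676), VIP against EXC -0.29 ± 0.28 (adjusted p = 0.429) and SST against VIP 0.45 ± 0.27 (adjusted p = 0.216). Within the pool shared by PV and 5 EXC libraries the difference was -3.61 ± 0.36 (adjusted p = 3.95e-07). The highest EXC value, 85.4 CPM, was that of replicate 3. The ciliated ependymal cell genes, at 40.0 to 174 CPM in PV and at most 1.69 elsewhere, moved with the PV differences of Gabra2 and of Gabrb1 below, and their part in these was not tested.

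Gabra5, which encodes alpha5, was the member most biased to EXC. It ran from 187 through 227 to 276 CPM in EXC, from 33.0 through 48.0 to 58.1 in SST, from 17.7 through 25.6 to 33.7 in PV and from 11.9 through 13.7 to 22.5 in VIP. The EXC libraries stood clear of all others, SST and PV met at their edges only, and so did PV and VIP. All neighbours in the order EXC, SST, PV, VIP differed: SST was lower than EXC, at -2.26 ± 0.18 (adjusted p = 1.35e-10), PV lower than SST, at -0.89 ± 0.18 (adjusted p = 0.000564), and PV higher than VIP by 0.77 ± 0.19 (adjusted p = 0.00167). VIP was lower than EXC, at -3.92 ± 0.20 (adjusted p = 1.43e-14), a 15.2-fold difference, and PV lower than EXC, at -3.15 ± 0.19 (adjusted p = 5.7e-13). The dentate granule cell genes named above, at 321 to 624 CPM in EXC and at most 8.59 elsewhere, moved with this difference, and their part in it was not tested. Within EXC, replicate 3 had 187 CPM of Gabra5 and 321 CPM of the dentate genes, the lowest of each. Replicate 1 had 244 CPM of Gabra5 with 624 CPM of the dentate genes, replicate 2 had 237 with 543, and replicate 5 had 217 with 538. Replicate 4 had the highest Gabra5, 276 CPM, with 446 CPM of the dentate genes, and replicate 6 had 214 CPM with 576.

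The sequencing pool is nearly nested in the subtype. A fit with pool as a covariate ties PV and the other EXC libraries to SST and VIP only through EXC replicate 3. Its values for SST or VIP against EXC or PV therefore all hang on that library. Where the fit ends a call of a member, turns a direction or moves a called value by over 1.5 times, its value is given here. For Gabra2 it gave -3.04 ± 0.79 in PV against SST (adjusted p = 0.00779) and -2.70 ± 0.69 in PV against VIP (adjusted p = 0.00805). For Gabra5 it gave -1.60 ± 0.40 in SST against EXC (adjusted p = 0.00382) and -1.61 ± 0.47 in PV against SST (adjusted p = 0.0157). Gabra5 in PV against VIP moved to 0.28 ± 0.38 (adjusted p = 0.682) in it. PV shares no pool with SST or VIP, and SST shares none with EXC. Pool and sort therefore cannot be told apart in those pairs for any gene, also where a call stayed. SST and VIP share a pool in part, with 5 SST libraries and only 2 VIP libraries in it. They differed by 1.66 ± 0.19 (adjusted p = 9.64e-08) over all libraries and by 1.97 ± 0.27 (adjusted p = 7.3e-05) within that pool. The values within it given below for SST and VIP rest on the same libraries.

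Gabra3, which encodes alpha3 and lies on the X chromosome, was high in PV and SST and lower in EXC and VIP. It ran from 109 through 132 to 143 CPM in PV, from 105 through 144 to 176 in SST, from 52.6 through 71.4 to 80.6 in VIP and from 36.6 through 56.3 to 104 in EXC. The highest EXC library, replicate 5 with 104 CPM, stayed just under the lowest SST library with 105. SST was higher than EXC by 1.23 ± 0.18 (adjusted p = 5.46e-06), or by 2.22 ± 0.43 in the fit with pool (adjusted p = 0.000433), and PV higher than EXC by 1.05 ± 0.19 (adjusted p = 4.41e-05). SST was higher than VIP by 1.07 ± 0.19 (adjusted p = 7.73e-05), and by 1.34 ± 0.23 within their shared pool (adjusted p = 0.000499). PV was higher than VIP by 0.89 ± 0.19 (adjusted p = 0.000327), but with pool as a covariate the difference was -0.07 ± 0.37 (adjusted p = 0.932).

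The ends of the Gabra3 order were less settled. PV and SST did not differ beyond their spread, at -0.18 ± 0.18 (adjusted p = 0.5), although the pool covariate gave -1.28 ± 0.45 (adjusted p = 0.0413). VIP and EXC did not either, at 0.16 ± 0.19 (adjusted p = 0.538). Without EXC replicate 5 that last difference was 0.40 ± 0.16 (adjusted p = 0.0459), and with pool as a covariate 1.01 ± 0.35 (adjusted p = 0.036).

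Gabra4, which encodes alpha4, was lowest in VIP. Its means fell in the order EXC, PV, SST and VIP, but not every step between neighbours was called. It ran from 160 through 176 to 195 CPM in EXC, from 132 through 160 to 173 in PV, from 99.6 through 122 to 144 in SST and from 53.7 through 79.6 to 85.5 in VIP. EXC overlapped PV, PV overlapped SST, and all VIP libraries lay below all others. VIP was lower than EXC, at -1.24 ± 0.14 (adjusted p = 2.95e-08), PV higher than VIP by 1.05 ± 0.13 (adjusted p = 5.4e-07) and SST higher than VIP by 0.68 ± 0.14 (adjusted p = 0.00037). SST was lower than EXC, at -0.56 ± 0.13 (adjusted p = 0.00126), which the pool covariate turned to -0.58 ± 0.32 (adjusted p = 0.166). PV and EXC did not differ beyond their spread, at -0.19 ± 0.13 (adjusted p = 0.238). PV against SST passed narrowly, at 0.37 ± 0.13 (adjusted p = 0.0417). That call was lost without any 1 of 18 of the 24 libraries, where the adjusted p reached 0.149, and in the fit with pool, at 0.36 ± 0.35 (adjusted p = 0.487).

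The beta genes took different courses. Gabrb1, which encodes beta1, was lowest in PV, where it ran from 117 through 138 to 189 CPM. It ran from 496 through 663 to 989 CPM in EXC, from 419 through 481 to 595 in SST and from 346 through 407 to 434 in VIP. No PV library came near the 346 CPM of the lowest library of the other sorts, and EXC and SST overlapped. PV was lower than EXC, at -2.35 ± 0.16 (adjusted p = 6.43e-12), a 5.12-fold difference, than SST, at -1.79 ± 0.16 (adjusted p = 2.89e-09) and than VIP, at -1.46 ± 0.16 (adjusted p = 3.41e-08). Against EXC, SST was lower, at -0.57 ± 0.15 (adjusted p = 0.00446) and VIP, at -0.90 ± 0.16 (adjusted p = 5.38e-05). With pool as a covariate these became -0.17 ± 0.34 (adjusted p = 0.742) and -0.39 ± 0.28 (adjusted p = 0.32), and PV against VIP became -2.05 ± 0.34 (adjusted p = 0.000128), while PV against EXC was -2.41 ± 0.16 within their shared pool (adjusted p = 3.79e-09). SST and VIP, neighbours in the order, did not differ beyond their spread, at 0.33 ± 0.16 (adjusted p = 0.113), although a fit to those 12 libraries alone gave 0.35 ± 0.13 (adjusted p = 0.0433).

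Gabrb2, which encodes beta2, was higher in PV and VIP than in EXC and SST. It ran from 916 through 1268 to 1612 CPM in PV, from 704 through 1257 to 1621 in VIP, from 432 through 668 to 1061 in SST and from 597 through 636 to 908 in EXC. PV stood just clear of EXC, and the other groups overlapped. PV was higher than EXC by 0.83 ± 0.21 (adjusted p = 0.00174), and by 0.88 ± 0.15 within their shared pool (adjusted p = 0.000122). VIP was higher than EXC by 0.80 ± 0.21 (adjusted p = 0.00322) and PV higher than SST by 0.82 ± 0.20 (adjusted p = 0.00341). With pool as a covariate these were 0.53 ± 0.42 (adjusted p = 0.374) and 1.34 ± 0.52 (adjusted p = 0.0676). SST was lower than VIP, at -0.79 ± 0.21 (adjusted p = 0.0046), and at -0.95 ± 0.26 within their shared pool (adjusted p = 0.0106). Neither the upper nor the lower pair differed beyond its spread: PV against VIP gave 0.03 ± 0.20 (adjusted p = 0.928) and SST against EXC 0.01 ± 0.20 (adjusted p = 0.972).

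**Figure D2:**
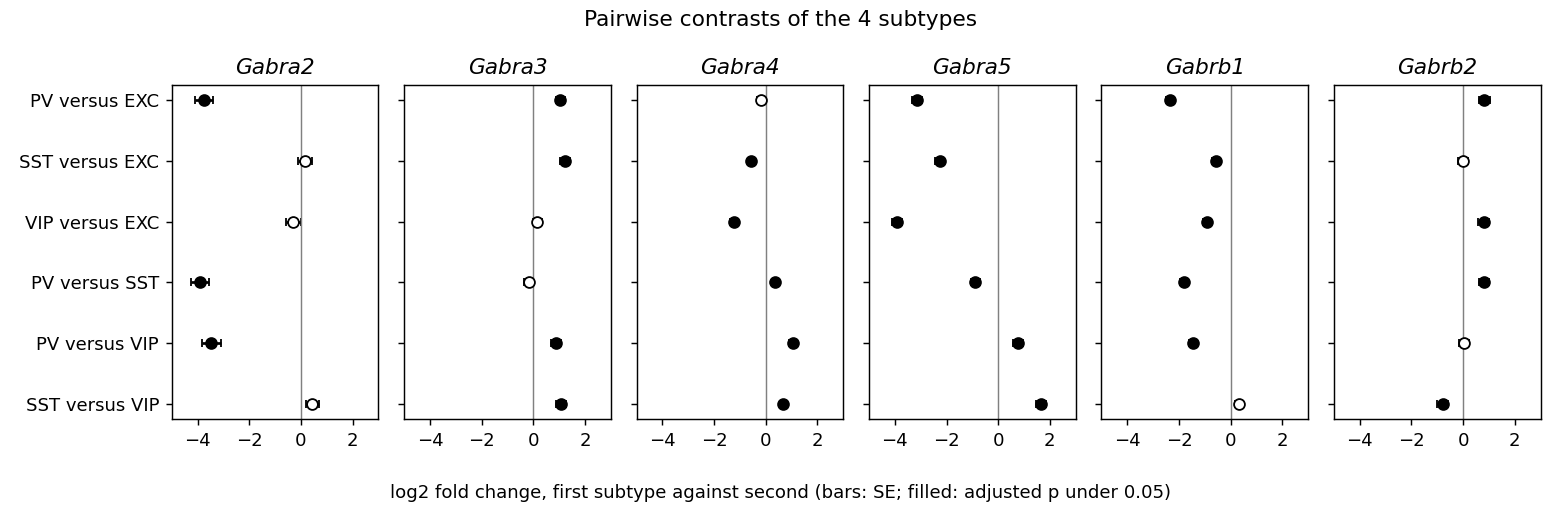
Log2 fold change (x axis) of each gene in the 6 pairs of subtypes (y axis), first subtype against second, from edgeR over 24 libraries. Bars are standard errors, and filled points have an adjusted p under 0.05. Gabra2 and Gabrb1 were lower in PV than in each other sort, with -3.75 and -2.35 against EXC.

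Counted over the 6 genes, PV against EXC gave 2 called higher (Gabra3, Gabrb2) and 3 lower (Gabra2, Gabra5, Gabrb1), where 45.9% of all genes tested were called, 20.3% higher and 25.6% lower. The 6 genes had a median log2 fold change of -1.27 and all genes -0.12. In 5 of the 6 the PV and EXC libraries did not overlap. The same held for 3 in SST against EXC and 3 in VIP against EXC. It held for 2 in PV against SST, 4 in PV against VIP and 3 in SST against VIP. The share of all genes without such overlap was not computed, so these counts have no background here. SST against EXC gave 1 higher and 3 lower, against 38.4% of all genes called, 17.1% higher and 21.3% lower. VIP against EXC also gave 1 higher and 3 lower, against 39.1% of all genes, 18.4% higher and 20.7% lower. PV against SST gave 2 higher and 3 lower, against 26.3% of all genes, 11.4% higher and 14.9% lower. PV against VIP gave 3 higher and 2 lower, against 48.6%, 21.9% higher and 26.7% lower, and SST against VIP 3 higher and 1 lower, against 31.3%, 14.6% higher and 16.7% lower. EXC against the mean of the other 3 sorts gave 4 higher (Gabra2, Gabra4, Gabra5, Gabrb1) and 2 lower (Gabra3, Gabrb2), where 42.5% of all genes were called, 24.5% higher and 18.1% lower. Pair by pair in the same fit, Gabra2 was called against EXC in PV only and Gabra4 in SST and VIP only. Gabra3 was called against EXC in PV and SST only, and Gabrb2 in PV and VIP only. In the comparison with the mean Gabrb2 was lower in EXC, at -0.55 ± 0.17 (adjusted p = 0.0121). The call was lost in the fit with pool (-0.30 ± 0.30, adjusted p = 0.459) and without EXC replicates 2 and 6, which held the most oligodendrocyte reads (-0.49 ± 0.21, adjusted p = 0.0787). With pool as a covariate the counts were 0 higher and 4 lower in PV against SST, 1 and 2 in PV against VIP, 1 and 1 in SST against EXC, 1 and 2 in VIP against EXC, and 4 and 1 in EXC against the mean. The shares of all genes above are those of the fit without pool and are no background for these counts. The fit with pool called fewer of all genes in PV against VIP and in VIP against EXC, as given in the last section. In PV against SST 1 gene was higher and 3 were lower in each of the 18 fits, with 1 library left out, that lost the call of Gabra4. These comparisons share libraries, so their counts are not independent of each other. The 2 higher and 3 lower calls in PV against EXC were made also without EXC replicates 2 and 6, and without PV replicates 1 and 6, which had the highest percentages of mitochondrial reads.

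Levels of different genes were compared per length, on the authors' RPKM (reads per kilobase of gene length, scaled to library depth). The 4 alpha genes together summed to 81.9 ± 4.42 RPKM in EXC, 58.3 ± 8.58 in SST, 46.7 ± 1.64 in PV and 33.5 ± 5.05 in VIP (SD, n = 6 each). Of this sum, Gabra5 made up the largest share in EXC, 43.1% ± 3.68, followed by Gabra4 with 31.3% ± 2.65, Gabra2 with 13.8% ± 4.76 and Gabra3 with 11.8% ± 4.01. In PV, Gabra4 with 46.9% ± 4.13 and Gabra3 with 42.8% ± 4.12 made up nearly all, and Gabra2 only 1.76% ± 1.09. In SST the largest share was that of Gabra3, 38.3% ± 3.63, before Gabra4 with 29.1% ± 3.02, Gabra2 with 20.4% ± 2.99 and Gabra5 with 12.3% ± 1.31. In VIP, Gabra3 (34.1% ± 6.84) and Gabra4 (33.0% ± 3.87) differed by less than their SDs, before Gabra2 (25.9% ± 8.24) and Gabra5 (7.05% ± 1.27). The shares within a library depend on the gene lengths the authors used. With exon lengths from GENCODE M21 in their place, Gabra3 led in PV with 48.5% before Gabra4 with 37.6%, and Gabra2 in EXC took 5.75% behind Gabra3 with 12.1%. In SST, Gabra5 with 19.8% came before Gabra2 with 9.85%, and in VIP Gabra3 took 43.8% and Gabra4 30.2%.

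Of the beta pair, Gabrb2 exceeded Gabrb1 per length in every library, to a degree that differed by sort. Gabrb2 measured 98.4 ± 32.1 RPKM in VIP, 95.6 ± 17.7 in PV, 54.7 ± 10.2 in EXC and 53.6 ± 16.4 in SST. Gabrb1 measured 16.8 ± 1.98, 5.88 ± 1.06, 30.2 ± 7.36 and 19.9 ± 2.72 RPKM in the same order. The ratio of Gabrb2 to Gabrb1 was 12.4 or more in PV, and ran from 3.85 to 7.13 in VIP, from 1.95 to 3.37 in SST and from 1.31 to 2.83 in EXC. The PV and VIP ranges were clear of each other and of the rest, and the EXC and SST ranges overlapped.

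**Figure D3:**
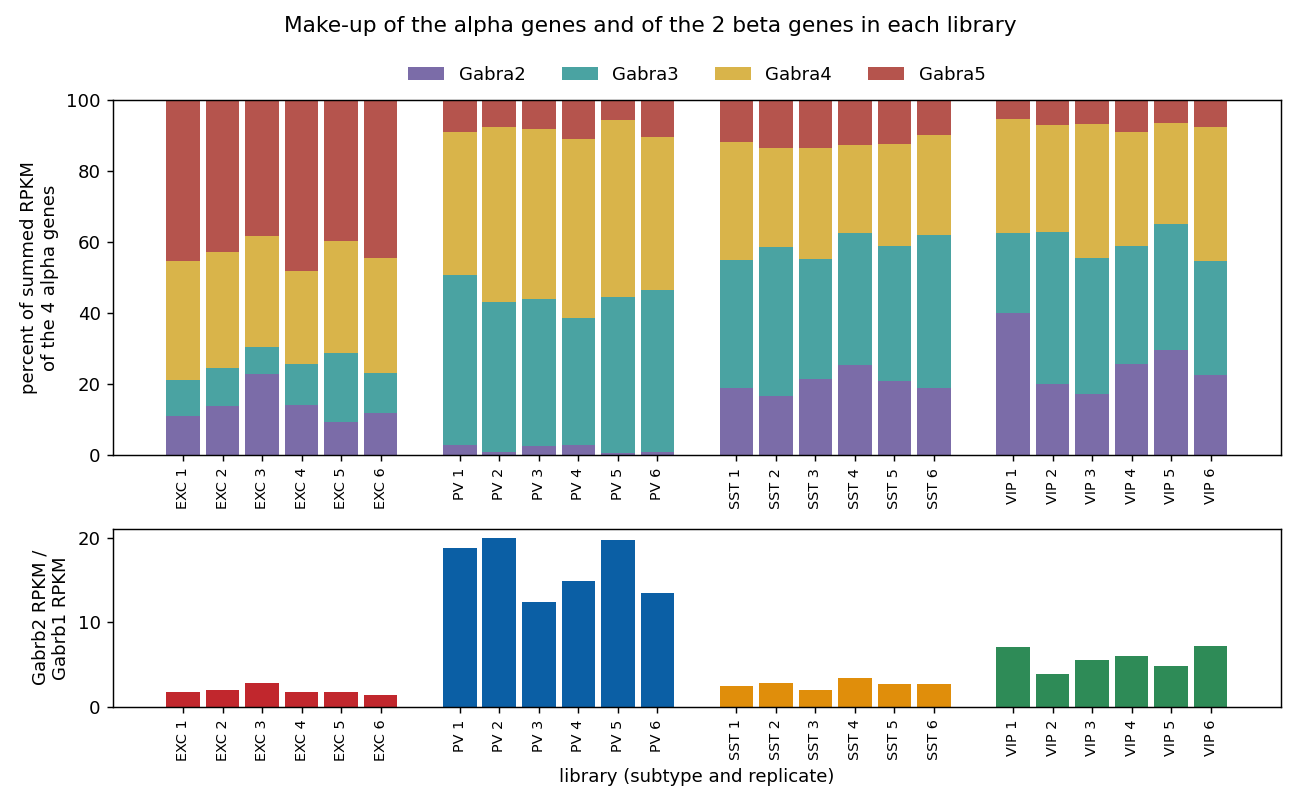
Upper panel: share of each alpha gene in the summed RPKM of the 4 alpha genes (y axis, percent) in each library (x axis). Lower panel: ratio of Gabrb2 to Gabrb1 RPKM in the same libraries, from 0. Gabra5 takes 38.3% to 48.2% of the alpha sum in EXC, and the PV ratios, 12.4 or more, exceed all others.

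Sex was tested in the same fit. Between female and male libraries edgeR called 0 of 6 genes, and 0 of 6 passed 0.05 before adjustment. Of all genes 0.0403% were called, 0.0134% higher and 0.0269% lower in females. The log2 differences ran from -0.32 for Gabra2 to 0.05 for Gabrb1, and DESeq2 called 0 of 6 as well. Gabra3, the gene on the X chromosome, differed by 0.02 ± 0.13. The subtype-by-sex terms, tested together, were called by edgeR for 0 of 6 genes, and 0 of 6 passed 0.05 before adjustment.

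Across the 24 libraries the log2 levels of Gabra2 and Gabrb1 ran most alike among the members, with a Pearson r of 0.87, followed by Gabra4 and Gabra5 with 0.72. Gabra5 and Gabrb2 ran opposite, with -0.59. Gabra4 and Gabrb1, which share bases at their starts, had an r of -0.00. Among 9252 other genes, those most like Gabra2 were Trpc6, a cation channel gene (r = 0.947), Ahi1 (0.933) and Basp1, of a membrane protein of growth cones (0.933). Trpc6 averaged 60.5 ± 13.3 CPM in SST and 2.41 ± 1.06 in PV (SD, n = 6). Those most like Gabra5 were Nrn1, which encodes neuritin (r = 0.971), Kctd4 (0.971) and Ppp3ca, the catalytic subunit of calcineurin (0.962). Those most like Gabra3 were Glrx, Stmn2 and Kctd8 (0.931, 0.926 and 0.923). Kctd8, of an auxiliary subunit of GABA-B receptors, averaged 56.7 ± 13.5 CPM in SST and 22.2 ± 4.44 in PV, against 1.13 ± 1.26 in EXC and 3.74 ± 0.668 in VIP. Gabra4 was followed most closely by Ntng1 (0.934), Lratd1 (0.93) and Npnt (0.926), and Gabrb1 by Atp8a1 (0.973), Nexmif (0.97) and the sodium channel subunit gene Scn3b (0.967). For Gabrb2 the highest values were lower, 0.851 for Wwp1, 0.845 for Tafa2 and 0.841 for Tfrc. These values describe 24 libraries in 4 clusters that share sort, pool and depth.

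The genes next to the members did not follow 1 pattern. On chromosome 5 the listed order is Guf1, Gnpda2, Gabrg1, Gabra2, Cox7b2, Gabra4, Gabrb1 and Commd8. On chromosome 7 Gabrg3 lies beside Gabra5, and on the X chromosome Gabre and Gabrq lie on either side of Gabra3. Of these 8 neighbours 6 were tested, and Gabre and Cox7b2 were too low. Only the members were followed as single genes in the fit with pool, so the neighbours have no such value. Gabrg1, of the gamma1 subunit, was highest in SST, with 93.5 ± 30.8 CPM there, 7.06 ± 6.58 in EXC, 5.18 ± 6.07 in PV and 4.69 ± 1.40 in VIP (SD, n = 6). It was higher in SST than in EXC by 3.75 ± 0.50 on the log2 scale (adjusted p = 1.24e-06) and than in VIP by 4.22 ± 0.52 (adjusted p = 5.71e-07), with no overlap. Gabra2, the next listed gene on the same chromosome, was 61.1 ± 14.9 CPM in SST and 55.6 ± 17.0 in EXC.

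Gabrq, of the theta subunit, was also highest in SST, with 18.5 ± 2.51 CPM against 1.95 ± 1.82 in EXC and 2.82 ± 1.80 in VIP, and 1 read in the 6 PV libraries together. SST exceeded EXC by 3.35 ± 0.52 (adjusted p = 1.02e-05). Gabre, of the epsilon subunit, had 147 reads in the 6 SST libraries (1.87 ± 0.662 CPM), 8 in EXC, 3 in VIP and 0 in PV. The striatal projection neuron genes were high in the same sort, 205 to 633 CPM against at most 68.2, and their part in these 3 differences was not tested. Nor was it tested for the higher Gabra3, Gabra4 and Gabra5 in SST than in VIP, or for the higher Gabra3 in SST than in EXC. Gabrg3, of the gamma3 subunit, was highest in PV, with 79.6 ± 14.4 CPM, averaged 54.5 ± 8.26 in VIP and 49.7 ± 6.39 in SST, and ran from 13.3 to 32.4 in EXC. PV exceeded EXC by 1.71 ± 0.18 (adjusted p = 1.39e-08), while its neighbour Gabra5 was lower in PV, at -3.15. Gnpda2, an enzyme of amino sugar metabolism, was called higher than in EXC in PV (0.59 ± 0.23), SST (0.75 ± 0.22) and VIP (1.17 ± 0.23). Guf1 was called lower in PV than in EXC (-1.48 ± 0.46), and Commd8 lower in PV (-0.95 ± 0.20) and VIP (-0.67 ± 0.20). Cox7b2 had between 3 and 15 reads in the 6 libraries of a sort.

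The 23 genes listed as anchoring, trafficking or auxiliary partners of GABA-A receptors were all tested. Like the neighbours, they were not followed in the fit with pool. In PV against EXC 5 were called higher and 6 lower, beside 20.3% and 25.6% of all genes, with a median log2 fold change of -0.03. In SST against EXC 3 were higher and 5 lower, beside 17.1% and 21.3% (median -0.16), and in VIP against EXC 3 were higher and 8 lower, beside 18.4% and 20.7% (median -0.15). The medians of all genes in these comparisons were -0.12, -0.06 and 0.01. Insyn2a, of an inhibitory synapse protein, was called higher than in EXC in all 3 sorts, although its SST and EXC libraries overlapped. It averaged 5.86 ± 4.37 CPM in EXC, 11.0 ± 2.24 in SST, 26.5 ± 7.42 in PV and 40.8 ± 7.70 in VIP (SD, n = 6), with differences from EXC of 0.92 ± 0.35 in SST (adjusted p = 0.0408), 2.15 ± 0.37 in PV (adjusted p = 2.96e-05) and 2.74 ± 0.37 in VIP (adjusted p = 9.14e-07).

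Shisa7, of an auxiliary subunit of GABA-A receptors, averaged 252 ± 68.2 CPM in EXC, 193 ± 29.3 in SST and 80.6 ± 20.3 in PV, and ran from 78.9 to 134 in VIP. It was lower than in EXC, at -1.61 ± 0.18 in PV (adjusted p = 4.48e-08) and at -1.28 ± 0.18 in VIP (adjusted p = 2.39e-06). Hap1, which takes part in receptor recycling to the surface, was lower in PV than in EXC, at -2.16 ± 0.30 (adjusted p = 1.35e-06) and higher in SST by 0.80 ± 0.25 (adjusted p = 0.0146). Nsf, of an ATPase of membrane fusion, was lower in VIP, at -1.59 ± 0.17 (adjusted p = 2.26e-08), with 387 ± 51.9 CPM there and 1120 ± 349 in EXC. Rdx, of the radixin that anchors alpha5 receptors, was higher in VIP by 0.84 ± 0.18 (adjusted p = 0.000448). Gabarapl1 was higher in PV by 0.69 ± 0.23 (adjusted p = 0.017). In SST, Insyn1 was lower than in EXC, at -0.97 ± 0.21 (adjusted p = 0.000784) and Trak2, of a motor adaptor, at -0.78 ± 0.14 (adjusted p = 8.41e-05).

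**Figure D4:**
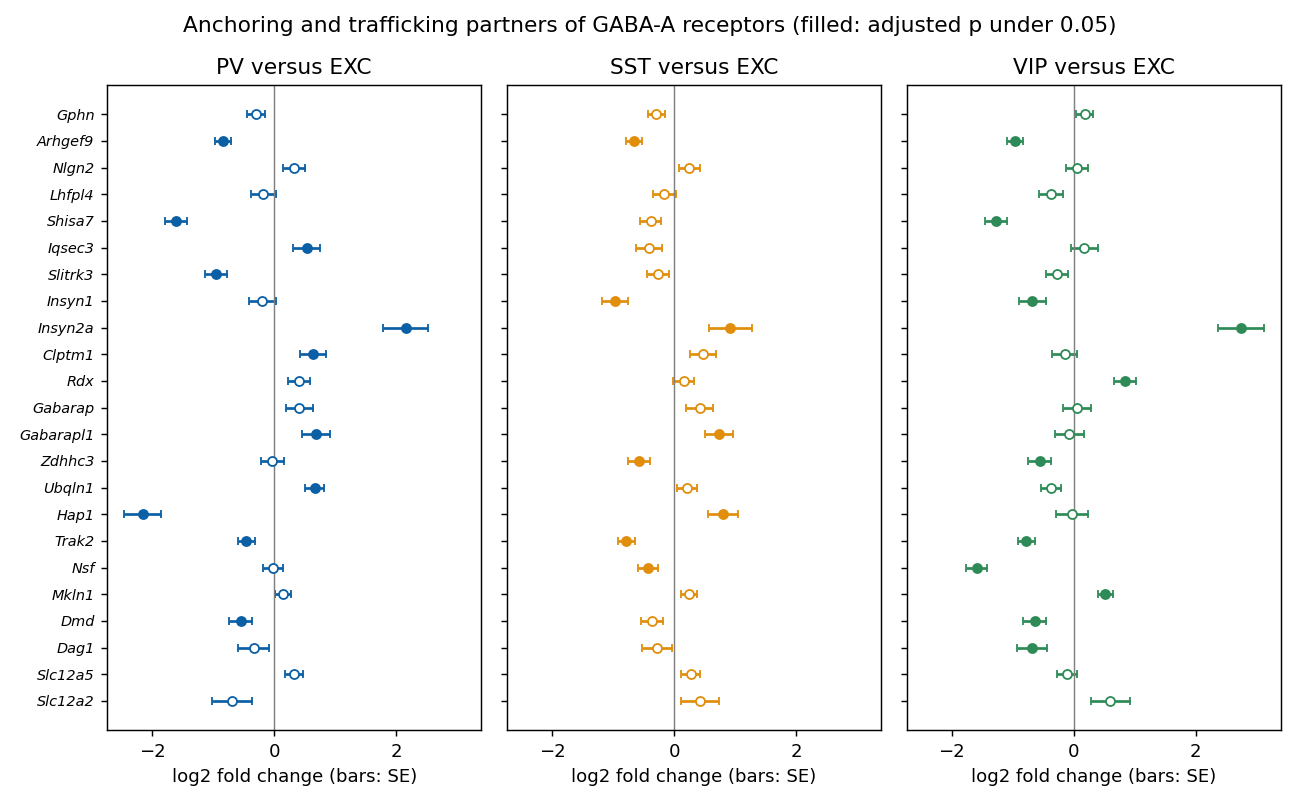
Log2 fold change (x axis, the same scale in each panel) of the 23 partner genes (y axis) in PV, SST and VIP against EXC. Bars are standard errors, and filled points have an adjusted p under 0.05. Insyn2a lies to the right of 0 in all 3 panels, at 2.15, 0.92 and 2.74.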

How the data were processed

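The deposited counts are, per the file headers, whole reads aligning uniquely to a gene model. The deposited RPKM values are, per the file headers, adjusted by size factors by the authors. Reads were aligned to GRCm38 with GSNAP, per the submitters' processing notes. The sources used here do not give its version, the annotation, the strand setting or the size-factor method. Of the listed genes, 31049 matched a RefSeq symbol. Counts were tested with edgeR 4.0.16 in R 4.3.3: filterByExpr by subtype, TMM, terms for subtype and sex over 24 libraries, quasi-likelihood F tests, Benjamini-Hochberg adjustment over all genes, calls under 0.05. The standard error is the log2 fold change divided by the square root of F. The procedure was tested on simulated counts. Correlations used log2 CPM with a prior count of 2, over genes of at least 10 CPM in their highest subtype. The text names the members, the 3 genes most correlated with each, the called partners with the largest changes (2 each way per sort against EXC) and all neighbours. The alternatives were DESeq2 1.42.0, other scalings, filters, covariates and subsets of libraries. No pair of libraries within a subtype matched within sampling noise (chi-square per degree of freedom at least 5.58). The members and lists were chosen with earlier results of these data known.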

Additional observations from a re-analysis of the deposited data

Results flagged for a closer look

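Among the 24 combinations of a gene and a subtype, 1 had a library far from the others: Gabra5 in VIP replicate 4 measured 22.5 normalised CPM, where the other VIP libraries ran from 11.9 to 15.8. Its gap to the nearest library, over the whole range, exceeded Dixon's critical value of 0.625 for 6 libraries. Chance flags about 1 in 20 groups.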

How the results depend on the processing

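No paired analysis was possible because the labels carry no replicate numbers. Those used here only count the libraries of each sort in the order of their listing in the series. With pool as a covariate, the number of genes called fell to 3714 from 5821 in VIP against EXC and to 2341 from 7242 in PV against VIP; that fit also reversed SST against EXC for Gabra2 (-0.59) and Gabrb2 (-0.49) and PV against VIP for Gabra3 (-0.07). The cause was not tested. The near-zero difference of Gabrb2 turned sign elsewhere: SST against EXC was -0.03 by DESeq2, -0.03 with DESeq2 size factors, -0.04 with a filter of 5 CPM in 6 libraries, -0.02 with the 12 libraries alone and -0.04 without EXC replicates 2 and 6 (chosen after seeing the data), and PV against VIP was -0.04 by DESeq2 and -0.04 with its size factors. Leaving out each library gave -0.11 to 0.14 for Gabrb2 in PV against VIP, -0.14 to 0.18 for Gabrb2 in SST against EXC, and -0.07 to 0.34 for Gabra2 in SST against EXC, the low ends of the last pair without SST replicate 4. Of all such values of the members 982 kept direction and call, 7 reversed, 18 lost the call and 1 gained it, and all 192 counts of genes called stayed within 1.5 times. PV against SST for Gabra4 lost its call without a filter (0.28, adjusted p = 0.395) and in the settings named above. With GENCODE exon lengths (the RefSeq table gives gene spans only), the shares of the alpha sum were, for Gabra2, 5.75% in EXC, 9.85% in SST and 13.8% in VIP; for Gabra3, 48.5% in PV, 45.8% in SST and 43.8% in VIP; for Gabra4, 22.7% in EXC, 37.6% in PV and 24.6% in SST; for Gabra5, 59.5% in EXC, 19.8% in SST, 13.0% in PV and 12.3% in VIP. Gabra2 in PV, the sort with the lowest median total count, rested on 2 to 18 reads per library. PV replicate 5, with 4653119 total counts, had 5 Gabra2 reads, and EXC replicate 3, with 4370732, had 404. The part of depth in the low PV reads was not tested.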
